A study of Daphnia magna with 12 samples.

Results

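Of the 9357 Daphnia magna gene models with a mean of at least 1 count per 1000000 counts (CPM) over 12 libraries, 87 had their 4 highest values in the same 4 libraries: old non-reproducing replicates 1 and 4, old reproducing replicate 2 and young replicate 1. These 87 genes, 0.93% of the 9357, are the subject here. They were chosen from the measured values: a gene was a member if the lowest of those 4 libraries lay above the highest of the other 8, with CPM taken as the count divided by the library total and multiplied by 1000000. The comparison of the 4 libraries with the other 8 is therefore described without a test, and the direction in each group was fixed by the choice. The deposited count table lists 21456 gene models, and 99 of them separated in this way when no minimum CPM was asked for. The same separation in the opposite direction, with the 4 libraries lowest, held for 76 genes (0.812%).

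Daphnia magna is a freshwater crustacean whose females reproduce clonally. An adult female moults repeatedly through life, and each brood of young is released shortly before a moult, so egg provisioning and renewal of the cuticle recur in step with each other. The labels give neither the moult stage nor the brood stage of the animals, and no label sets the 4 libraries apart from the others of their groups.

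RNA from whole bodies of females, labelled as somatic tissue, was sequenced in 12 libraries, 4 in each of 3 groups. Old non-reproducing females were 130 to 170 days old and had stopped reproducing, old reproducing females were of the same age range and still reproduced, and young females were 20 days old and reproduced. All came from 1 clone, GB-EL75-69, which limits the groups to 1 genotype, and all were kept singly at 20 °C in ADaM medium on the green alga Scenedesmus acutus. The study asked how gene expression differs with age and with reproduction late in life.

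The files do not pair the gene IDs with names. None of the IDs matched the 28335 genes of the reference table, which belongs to the assembly ASM2063170v1.1, so no function can be given for any member. At most 2 IDs are printed in each direction. Other members are identified by the contig in their ID and by the length of the gene model, which was recovered from the deposited counts and RPKM values.

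Total counts ranged from 16921813 to 25260519 in the 4 libraries and from 16015869 to 25659597 in the other 8. Gene models with at least 1 read numbered 14337 to 16125 in the 4 and 14326 to 16490 in the other 8, so neither depth nor the number of detected genes set the 4 apart. The single most abundant gene took 2.04% to 6.99% of counts in the 4 libraries and 4.11% to 10.04% in the other 8. All libraries of a group differed from each other by more than counting error, and each was counted as 1 sample.

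Summed over the 87 members, the level was 19221 CPM in old non-reproducing replicate 1, 19150 CPM in old non-reproducing replicate 4, 17024 in old reproducing replicate 2 and 19495 in young replicate 1. In the other 8 libraries the sum lay between 8100 CPM in young replicate 4 and 13803 CPM in old reproducing replicate 3. The mean sum was 18723 ± 1142 CPM in the 4 libraries (SD, n = 4) and 11154 ± 2012 CPM in the other 8 (SD, n = 8). The members were chosen from these values, and the closeness of the 4 sums depended on the scaling: with TMM-scaled library sizes they ran from 17020 to 22439 CPM. Because the RNA came from whole bodies, more cells of a type and more RNA per cell cannot be told apart.

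The 10 members with the most reads made up most of these sums. Without them the remaining members summed to 4662 to 6298 CPM in the 4 libraries and to 2629 to 4009 CPM in the other 8. The rule fixes in advance that such sums do not overlap, so this gives a size only. The median CPM over the members was 21.3 to 34.5 in the 4 libraries and 9.98 to 14.1 in the other 8. The 76 genes with the opposite pattern summed to 8172 to 9849 CPM in the 4 libraries and to 11906 to 42176 CPM in the other 8.

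**Figure D1:**
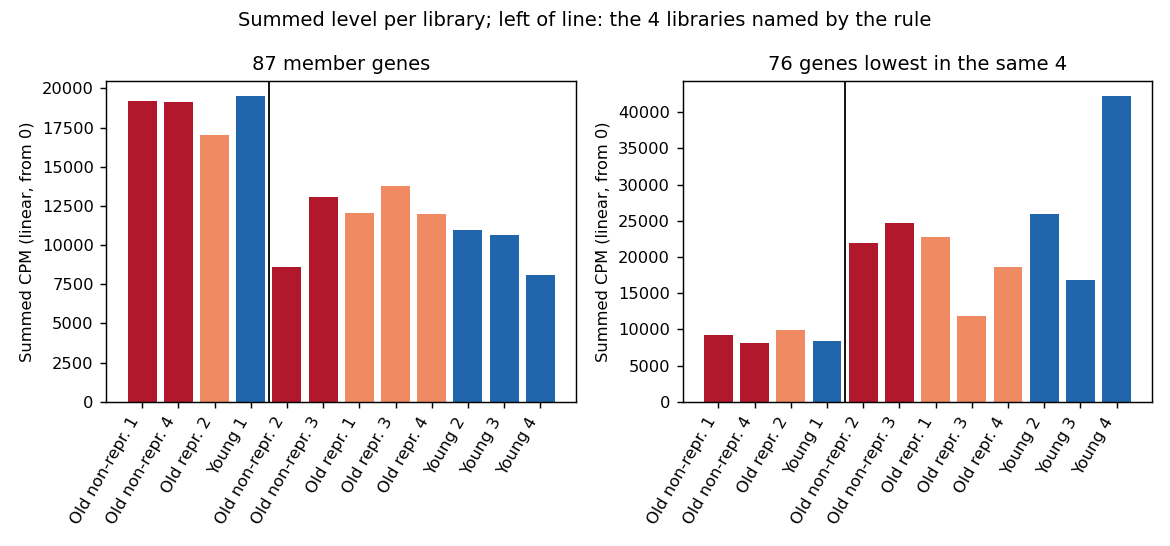
Bars give the summed CPM per library of the 87 members (left panel) and of the 76 genes lowest in the same 4 libraries (right panel), coloured by group, with the 4 libraries of the rule left of the line. The 4 member sums lie between 17024 and 19495 CPM and the highest of the other 8 is 13803 CPM; in the right panel young replicate 4 reaches 42176 CPM.

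By study group the sums averaged 15020 ± 5145 CPM in old non-reproducing, 13715 ± 2361 CPM in old reproducing and 12296 ± 4967 CPM in young libraries (SD, n = 4 each). The groups overlapped widely, and the spread inside the old non-reproducing and young groups was larger than any difference between group means. The rule placed libraries chosen as high and libraries chosen as low in every group. Overlap and spread of these sums therefore follow from the choice, and nothing is read from them about the groups. Old reproducing libraries were closest together, with 17024 CPM in replicate 2 and 11956 to 13803 CPM in the other replicates.

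**Figure D2:**
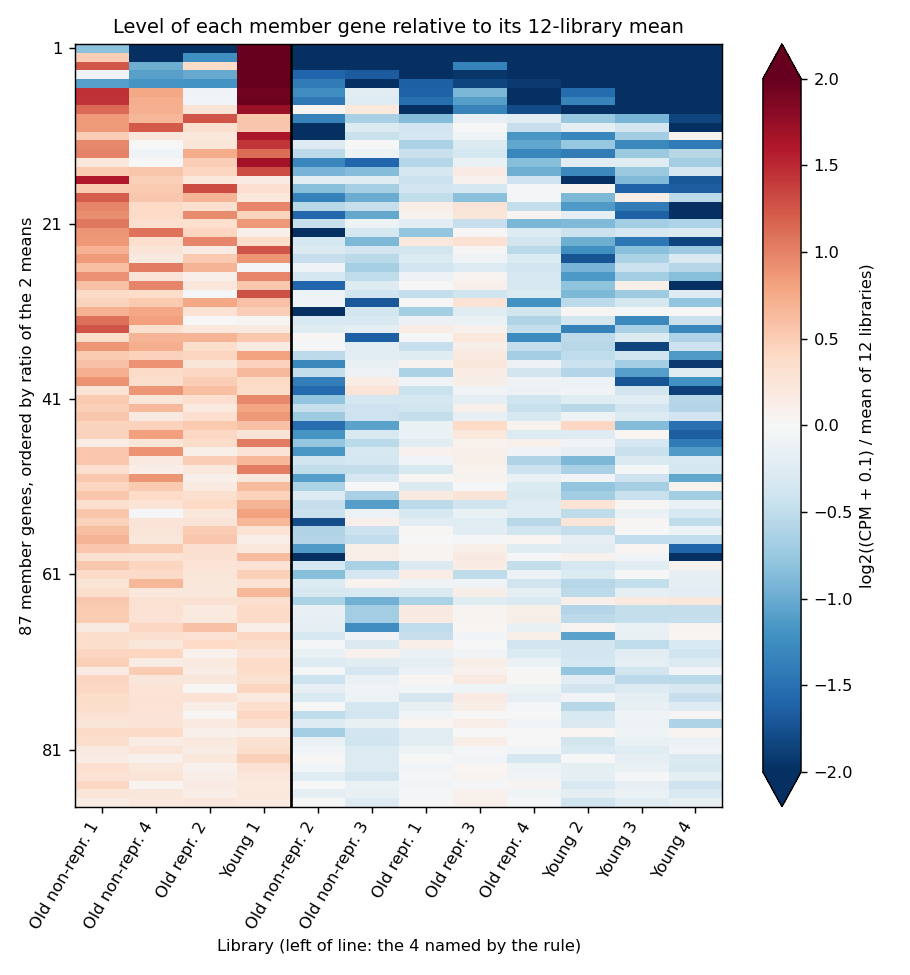
Level of each member (rows) in each library (columns), as the log2 ratio to the mean of that gene over the 12 libraries; colours are clipped at −2 and 2. The 4 libraries of the rule, old non-reproducing 1 and 4, old reproducing 2 and young 1, stand left of the line and are the 4 highest in every row by choice; rows run from the largest fold of means, 90.3, at the top to 1.23 at the bottom, and in the top rows young 1 is far above the rest.

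For most members the gap between the 4 libraries and the other 8 was narrow. The lowest of the 4 divided by the highest of the 8 had a median of 1.06 and ranged from 1.00064 to 1.96. It reached 1.1 in 27 members, 1.2 in 13, 1.5 in 2 and 2 in none of the 87. The top ratio, 1.96, is that of the 696-nucleotide model on contig 000019F and rests on 4 counts against 2, whose counting intervals overlap. Exact Poisson 95% intervals of the 2 libraries at the gap did not overlap in 15 members. These intervals cover counting error only, since PCR copies of 1 molecule cannot be told from separate molecules.

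Genes on both sides of the rule's limits had nearly equal values. The member closest to the limit had 101.21 CPM in the lowest of the 4 libraries and 101.15 CPM in the highest of the other 8. The nearest gene outside had 3.1109 CPM in the lowest of the 4 and 3.1111 CPM in the highest of the 8. At the limit on abundance, the last member had a mean of 1.09 CPM, and the first separated gene left out had a mean of 0.664 CPM.

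The averages differed more than the extremes. The mean of the 4 libraries divided by the mean of the other 8, after 0.1 CPM was added to both, had a median of 1.79 over the 87 members, with quartiles of 1.48 and 2.27 and a range of 1.23 to 90.3. The top value is set by the added 0.1 CPM, since the 696-nucleotide model on contig 000019F that has it averaged 0.0311 CPM in the other 8 libraries. That gene passed the minimum of 1 CPM through young replicate 1 alone, which had 43.8 CPM. The next highest fold was 63.01. It reached 1.5 in 64 members, 2 in 30, 4 in 8 and 8 in 5. On the log2 scale the median was 0.84 over the members and −0.10 over all 9357 genes. The list was chosen for this difference, so it is given as a size only.

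Within the groups, the difference was wider among old non-reproducing and young libraries than among old reproducing ones. Taken as the mean of the libraries of the rule over the mean of the rest of the same group, again with 0.1 CPM added, the median log2 ratio over members was 0.94 in the old non-reproducing group (2 libraries against 2), 0.44 in the old reproducing group (1 against 3) and 1.01 in the young group (1 against 3). The same medians over all 9357 genes were 0.04, −0.14 and −0.30 in the order just given. Members at least 2-fold higher numbered 37 of 87 in the old non-reproducing group (42.5%, against 7.05% of all genes). They numbered 12 in the old reproducing group (13.8%, against 2.36%) and 44 in the young group (50.6%, against 5.85%). The widest of the 3 ratios was that of the young group for 55 members, of the old non-reproducing group for 31 and of the old reproducing group for 1. The rule chose the members as higher in these libraries within each group, so shares above those of all genes follow from the choice.

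**Figure D3:**
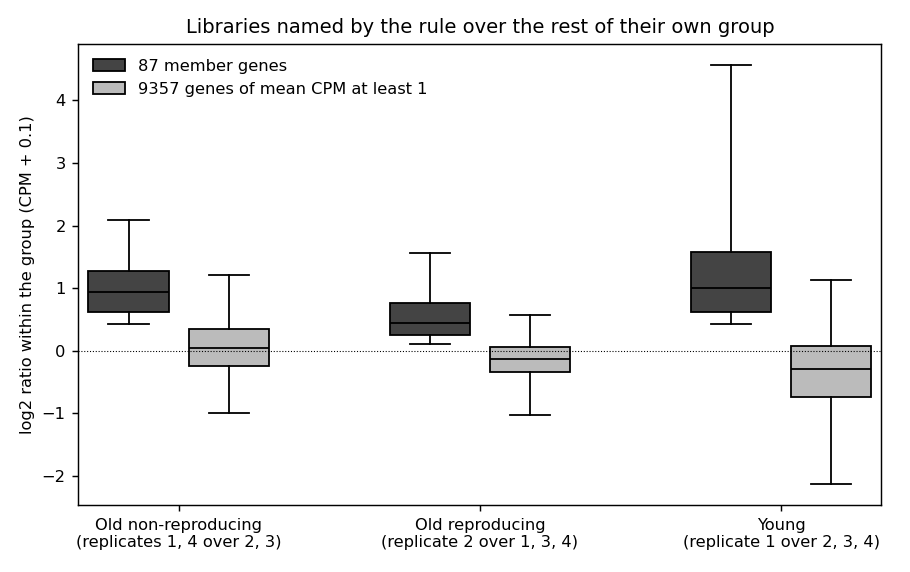
Log2 ratio of the libraries of the rule to the rest of the same group in old non-reproducing, old reproducing and young females, for the 87 members (dark boxes) and all 9357 genes (light boxes); boxes span the quartiles with the median as a line, and whiskers the 5th to 95th percentiles. Member boxes lie above 0 by choice, with medians of 0.94, 0.44 and 1.01 from left to right.

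Which library stood highest varied among the members. Young replicate 1 held the highest of the 12 values for 38 members, old non-reproducing replicate 1 for 28, old non-reproducing replicate 4 for 12 and old reproducing replicate 2 for 9. Young replicate 1 was thus the highest of the 4 for 43.7% of members and 15.98% of all 9357 genes, and old non-reproducing replicate 1 for 32.2% of members and 33.8% of all genes. With TMM-scaled library sizes young replicate 1 was the highest of the 4 for 61 members (70.1%, against 32.1% of all genes) and old non-reproducing replicate 1 for 8 (9.20%, against 16.99%). Old reproducing replicate 2 was the lowest of the 4 for 39 members and old non-reproducing replicate 4 for 29. Young replicate 1 was at least 2-fold above every other library in 7 members (8.05%, against 0.876% of all genes). Old non-reproducing replicate 1 was so in 1 (1.15%, against 0.139%). Old non-reproducing replicate 4 and old reproducing replicate 2 were so in 0, against 0.235% and 0.0107% of all genes. The rule chose the members as high in these 4 libraries, so the shares are not independent of the choice.

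Among the other 8 libraries, old reproducing replicate 3 came closest to the 4 in CPM by library totals. It held the highest of the 8 values for 44 members, 50.6%, where it did so for 17.2% of all genes. This order changed when library sizes were scaled by TMM factors, which correct for a few genes that take a large share of the reads. On that scale old reproducing replicate 3 was highest of the 8 for 8 members (9.20%, against 8.92% of all genes). Old non-reproducing replicate 3 was highest for 37 (42.5%, against 17.9% of all genes). The TMM factor was 1.132 in old reproducing replicate 3 and 0.831 in old non-reproducing replicate 3. The lowest of all 12 values fell in young replicate 4 for 26 members, young replicate 2 for 23 and old non-reproducing replicate 2 for 17. No share over all genes is given for these counts, so nothing is read from them.

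The membership itself also depended on the scaling. With TMM-scaled library sizes, 202 genes met the rule, and 66 of the 87 members were among them. The other 21 members overlapped between the 4 and the 8 libraries on that scale, down to a ratio of 0.791 between the lowest of the 4 and the highest of the 8. With DESeq2 size factors 253 genes met the rule, again with 66 of the members, and 65 members separated on all 3 scales. The TMM-scaled sums of the 87 members still did not overlap, with at most 15791 CPM in the other 8 libraries.

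In 8 members the libraries of the rule were at least 2-fold higher within each of the 3 groups. The rule used these values, so this is a description. Its minimum of 1 CPM was a mean over all 12 libraries, which low genes could reach through the 4 high ones. Among the 8 members maker-000115F-augustus-gene-0.71, a model of 3287 nucleotides, had 28.5 and 25.2 CPM in old non-reproducing replicates 1 and 4, 38.1 CPM in old reproducing replicate 2 and 23.3 CPM in young replicate 1. In the other 8 libraries it had from 4.36 CPM in young replicate 4 to 14.1 CPM in old reproducing replicate 3, with a median of 9.003. Of the 55 members averaging 10 CPM or more it had the widest gap, a ratio of 1.65 between the lowest of the 4 and the highest of the 8. The 4 high libraries were of similar level, and the means were 28.8 ± 6.57 CPM (SD, n = 4) and 9.32 ± 3.34 CPM (SD, n = 8).

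A second member on contig 000115F, of 435 nucleotides, stands next to it in the numbering of the gene models. It had 4.59 and 4.56 CPM in old non-reproducing replicates 1 and 4, 7.92 CPM in old reproducing replicate 2 and 4.02 CPM in young replicate 1. The other 8 libraries had 0.935 to 3.27 CPM, with a median of 2.17. As in its neighbour, old reproducing replicate 2 was the highest library. Of the 20 genes on contig 000115F that averaged 1 CPM or more, these 2 are its only members.

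The other named member, maker-000016F-augustus-gene-15.67, a model of 971 nucleotides, was dominated by 1 library. It had 12.4 and 6.09 CPM in old non-reproducing replicates 1 and 4, 6.41 CPM in old reproducing replicate 2 and 110.7 CPM in young replicate 1. The other 8 libraries ranged from 1.05 to 4.28 CPM, with a median of 2.58. The gap ratio was 1.42, and the 12.7-fold difference of means rests mostly on young replicate 1. The gene also reached the mean of 10 CPM asked of named members through young replicate 1 alone.

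Of the 8 members, 3 more were highest by far in young replicate 1. A model of 5589 nucleotides on contig 000201F had 81.7 and 12.6 CPM in old non-reproducing replicates 1 and 4, 24.9 CPM in old reproducing replicate 2 and 560.1 CPM in young replicate 1, against 0.250 to 9.98 CPM in the other 8. A model of 696 nucleotides on contig 000019F had 2.19, 0.175, 0.831 and 43.8 CPM in the same 4 libraries, against 0 to 0.0892 CPM in the other 8. A model of 930 nucleotides on contig 000016F had 9.65, 2.02, 5.27 and 27.4 CPM, against 0.195 to 1.52 CPM. In all 3, old non-reproducing replicate 1 came second and old non-reproducing replicate 4 was the lowest of the 4.

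The remaining pair of the 8 lies on contig 000022F and could not be told apart by level. The model of 1015 nucleotides had 5.79 and 3.55 CPM in old non-reproducing replicates 1 and 4, 1.94 CPM in old reproducing replicate 2 and 8.04 CPM in young replicate 1, against 0.0390 to 1.72 CPM in the other 8. The model of 2278 nucleotides had 5.66, 3.42, 1.94 and 8.16 CPM in the same order, against 0.0563 to 1.67 CPM. The 2 models had 12-library means of 2.03 and 2.02 CPM, most of it from the 4 libraries, through which they passed the minimum of 1 CPM. Their counts stayed within 1.5-fold of each other in all 12 libraries, so the pair may share reads and is not counted as independent evidence. Under TMM scaling this pair overlapped between the 4 and the other 8 libraries, while the other 6 of the 8 still separated.

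**Figure D4:**
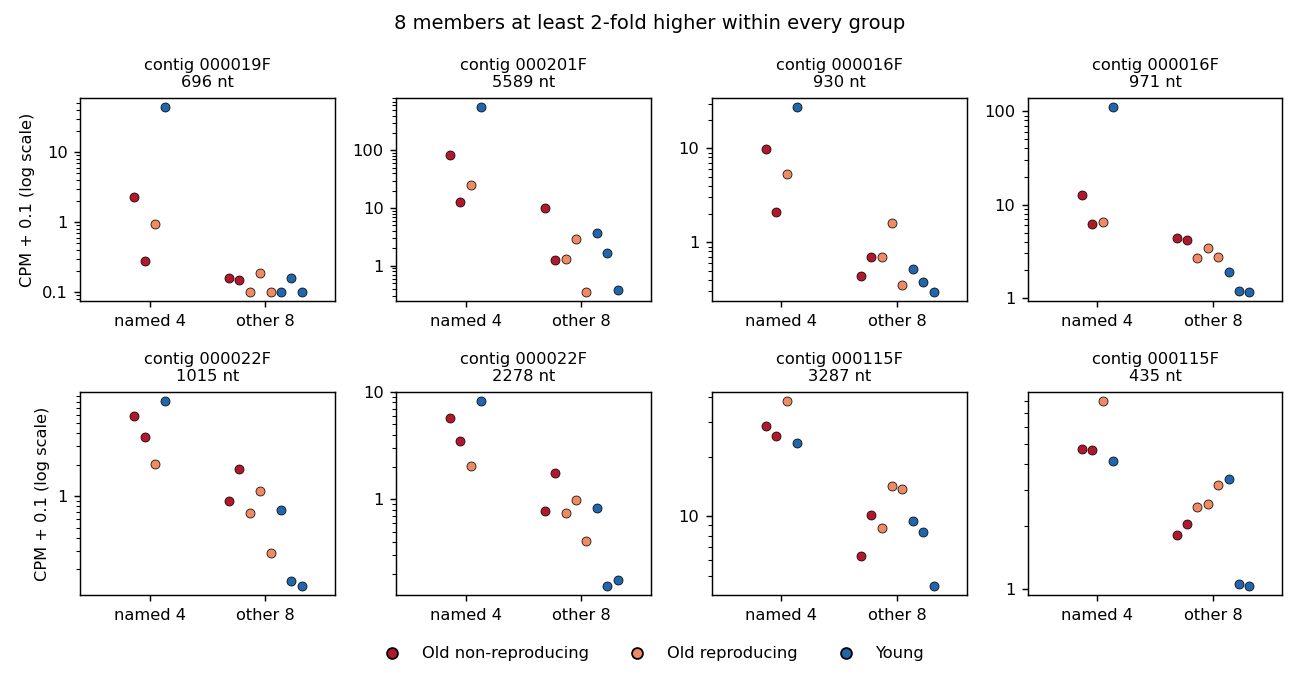
CPM on a log axis, with 0.1 CPM added, of the 8 members that were at least 2-fold higher within every group, 1 panel a gene titled by contig and model length; points are libraries coloured by group, with the 4 named by the rule on the left of each panel and the other 8 on the right. In the 3287-nucleotide model on contig 000115F the 4 lie between 23.3 and 38.1 CPM, while young replicate 1 stands far above the rest of the 4 on contigs 000201F, 000019F and 000016F.

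Of the next members by gap ratio, again of those averaging 10 CPM or more, those at ranks 3, 4 and 7 are given first; rank 5 is the 5589-nucleotide model given above, and ranks 6 and 8 follow with the members low in 1 library. A model of 495 nucleotides on contig 000021F had 37.6 and 22.5 CPM in old non-reproducing replicates 1 and 4, 22.8 CPM in old reproducing replicate 2 and 32.9 CPM in young replicate 1, against 9.55 to 16.7 CPM in the other 8. A model of 3541 nucleotides on contig 000013F had 72.1, 59.2, 63.1 and 97.1 CPM in the same order, against 29.02 to 43.9 CPM. A further model of contig 000013F, of 2394 nucleotides, had 23.9, 18.4, 20.5 and 29.8 CPM, against 9.86 to 15.1 CPM. In these 3 models the mean of the 4 libraries was 1.81 to 2.30 times that of the other 8, and no single library carried the difference. The 2 models of contig 000013F lie in the same stretch of it by the numbers in their IDs. They are not counted as independent of each other. A longer model of 6036 nucleotides on contig 000003F had 287.3, 274.9, 269.5 and 349.3 CPM in the same order, against 90.9 to 229.3 CPM in the other 8, of which old reproducing replicate 3 was highest.

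In 5 members old non-reproducing replicate 2 was under 50% of every other library (5.75%, against 1.67% of all genes). The rule chose the members as lower in this library than in the 4, so the share is not independent of the choice. A model of 3658 nucleotides on contig 000006F had 78.7, 83.2, 59.5 and 68.6 CPM in old non-reproducing replicates 1 and 4, old reproducing replicate 2 and young replicate 1. It had 30.3 to 49.3 CPM in 7 of the other 8 libraries and 0.285 CPM in old non-reproducing replicate 2. A model of 2625 nucleotides on contig 000031F had 524.7 to 1041 CPM in the 4 libraries, 284.4 to 497.3 CPM in 7 of the others and 7.81 CPM in old non-reproducing replicate 2. A model of 1538 nucleotides on contig 000004F had 14.8 to 27.5 CPM in the 4 libraries and 8.49 to 11.8 CPM in 6 of the others, while old non-reproducing replicate 2 had 0.342 CPM and young replicate 4 had 1.17 CPM. For these genes the average of the 8 libraries mixes libraries at a moderate level with 1 or 2 near 0.

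The 2 members with the most reads had a narrow gap between the 4 libraries and the other 8. A model of 2352 nucleotides on contig 000001F had 3432 and 3427 CPM in old non-reproducing replicates 1 and 4, 2701 CPM in old reproducing replicate 2 and 3023 CPM in young replicate 1, against 1935 to 2695 CPM in the other 8, a gap ratio of 1.00209. A model of 2326 nucleotides on contig 000050F had 2952, 4509, 3701 and 3153 CPM in the same order, against 670.7 to 2933 CPM. Per length these were also the highest members, with mean RPKM of 1079 and 1053, followed by 491.4 RPKM for a model on contig 000014F. In both genes the gap between the lowest of the 4 libraries and the highest of the other 8 was under 1% of the level. Neither separated with TMM-scaled library sizes, where the gap ratios were 0.830 and 0.791, nor with DESeq2 size factors.

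The next 3 by reads were a model of 5437 nucleotides on contig 000005F, a model of 14057 nucleotides on contig 000042F and a model of 8187 nucleotides on contig 000001F. Their means were 1211, 986.8 and 1040 CPM in the 4 libraries, against 635.8, 709.6 and 668.9 CPM in the other 8. On contig 000000F, a model of 6864 nucleotides had 750.5 ± 19.8 CPM in the 4 libraries (SD, n = 4) and 608.0 ± 69.9 CPM in the other 8 (SD, n = 8). Its fold of 1.23 was the lowest of all members, and its 4 high values were within 723.7 to 771.1 CPM. Among the 4 others of the top 10, on contigs 000031F, 000068F, 000001F and 000022F, the fold of means was 1.72 to 2.64.

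The members resembled other expressed genes in length and abundance. The median gene model was 2326 nucleotides long among members and 2361 among all 9357 genes, and the median mean level was 16.3 CPM in both. Per length, the median was 10.1 RPKM among members and 8.07 among all. Genes averaging 100 CPM or more made up 25.3% of members, against 17.3% of all genes. Models named for the maker-augustus predictor made up 55.2% of members and 53.6% of all genes.

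The members were spread over the assembly. They lay on 38 of the 156 contigs that carry any of the 9357 genes, and 17 contigs held 1 member each. Contigs 000000F and 000001F held 9 members each, of 750 and 608 genes, and contig 000015F held 6 of 264. In 8 stretches of a contig, taken from the numbers in the IDs, more than 1 member lay together, 16 members in all. Counts within 1.5-fold of each other in all 12 libraries were found for 4 of 131 pairs of members on the same contig and 34 of 3610 pairs on different contigs. The files do not show whether such pairs share reads.

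Principal components were computed without the members, but with the 76 genes of the opposite pattern and with genes that separate under other scalings still in, so they are no independent support for the split. Of 4 components examined, the second had the 4 libraries among its 5 highest scores, and its sign is arbitrary. In principal components of log2 CPM of the 10902 tested genes other than the members, component 1 held 41.6% of the variance and component 2 held 19.9%. On component 2 old non-reproducing replicates 1 and 4 scored 59.4 and 10.7, old reproducing replicate 2 scored 36.7 and young replicate 1 scored 59.4. The other 8 libraries scored from −59.9 to 15.4, and young replicate 3, at 15.4, lay above old non-reproducing replicate 4. On component 1 the 4 libraries scored 3.13, 77.7, −26.9 and −44.7 in the same order, so they did not lie together there.

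**Figure D5:**
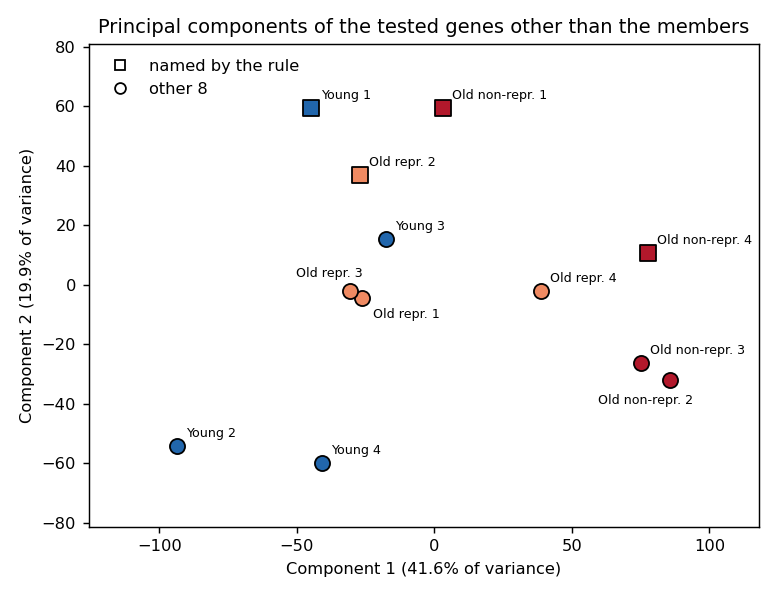
Scores of the 12 libraries on principal components 1 (41.6% of variance) and 2 (19.9%) of the tested genes other than the 87 members; colour gives the group and squares the 4 libraries of the rule. The squares have scores of 10.7 to 59.4 on component 2, where 1 circle, young replicate 3 at 15.4, lies among them.

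No member was called in any comparison of the study groups over all 12 libraries. Of the 87 members, 85 passed the filter on low counts and were tested with edgeR's quasi-likelihood test, with a gene called where its Benjamini-Hochberg adjusted p over the 10987 genes tested was under 0.05. The contrast of old non-reproducing with young females had 0 of 85 members called, where 12% of all tested genes were. In old reproducing against young females 0 members were called, where 2.88% of all genes were, and in old non-reproducing against old reproducing females 0 members and 0% of all genes were called. At an unadjusted p under 0.05 there were 2, 1 and 0 members in the 3 comparisons by edgeR, where 30.9%, 13.2% and 8.06% of all genes tested passed that limit. DESeq2 called 0 members in each, where it called 23.8%, 5.48% and 2.89% of all genes. It gave 3 members no adjusted p, and 3, 0 and 0 members had an unadjusted p under 0.05 with it, where 34.6%, 17.2% and 10.6% of all genes did.

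The median log2 change over the 85 members was 0.15 between old non-reproducing and young females, −0.04 between old reproducing and young females and 0.17 between old non-reproducing and old reproducing females. The medians of all 10987 genes were −0.00, −0.03 and −0.00 in that order. The first median ran from −0.01 to 0.56 when 1 library was left out, the highest without young replicate 1. The second turned to 0.43 without young replicate 1 and to 0.09 with the replicate number as a block. Without the 4 libraries it was 0.25, where the median of all genes was −0.001. In limma-trend on log2(RPKM + 0.1) it was 0.16, where the median of all genes was 0.11. The third turned to −0.07 without the 4 libraries. The rule places 2 high libraries in the old non-reproducing group and 1 in each of the other groups, and it widens the spread inside each group, so these counts and medians are not independent of the choice of members. For old non-reproducing against young females, edgeR gave maker-000115F-augustus-gene-0.71 a log2 difference of 0.52 with a standard error of 0.67 (adjusted p = 0.659). It gave maker-000016F-augustus-gene-15.67 a log2 difference of −2.29 with a standard error of 1.37 (adjusted p = 0.291).

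The groups were also compared without the 4 libraries, with 2 libraries left in the old non-reproducing group and 3 in each other group. In old non-reproducing against young females, edgeR then called 3 of 85 members, where 5.42% of all 11507 genes tested were called. Of the 3, 2 were higher, where 4.7% of all genes were, and 1 was lower, where 0.721% were. In old reproducing against young females 0 members were called, where 1.12% of all genes were, and in old non-reproducing against old reproducing females 0, where 1.44% were. At an unadjusted p under 0.05 by edgeR there were 10, 11 and 3 members in the 3 comparisons as ordered here (11.8%, 12.9% and 3.53%), where 23.2%, 11.6% and 9.52% of all genes passed that limit. With both directions together, the share of members called was not above that of all genes in any of the 3 comparisons. The rule used the other 8 libraries too, holding every member in them below the 4 left out. Calls and p-values from them, here and below, are therefore not independent of the choice of members.

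The 1 member called lower was maker-000012F-augustus-gene-18.73, a model of 5661 nucleotides. As a member it did not separate with TMM-scaled library sizes (gap ratio 0.981) or with DESeq2 size factors. Without the 4 libraries it had 36.6 and 29.2 CPM in old non-reproducing replicates 2 and 3, against 60.8, 64.9 and 67.0 CPM in young replicates 2, 3 and 4, and the groups did not overlap. By edgeR it fell by 0.88 on the log2 scale, with a standard error of 0.14 (adjusted p = 0.0139). The libraries left out had 83.2 and 70.1 CPM in old non-reproducing replicates 1 and 4 and 71.0 CPM in young replicate 1, and with them edgeR gave a log2 difference of −0.33 with a standard error of 0.30 (adjusted p = 0.502).

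The 2 members called higher were low genes. A model of 2213 nucleotides on contig 000001F had 2.28 and 2.55 CPM in old non-reproducing replicates 2 and 3, against 0.475, 0.282 and 0.234 CPM in young replicates 2, 3 and 4. It rose by 2.99 on the log2 scale, with a standard error of 0.49 (edgeR adjusted p = 0.0164). As a member this model did not separate with TMM-scaled library sizes or with DESeq2 size factors. The other, maker-000016F-augustus-gene-15.67, had 4.28 and 4.04 CPM in the same old non-reproducing libraries, against 1.80, 1.07 and 1.05 CPM in the young ones. Its log2 rise was 1.78, with a standard error of 0.36 (edgeR adjusted p = 0.0332). For this gene the sign was opposite with all 4 libraries in the fit, where the log2 difference was −2.29, as given above. Leaving out young replicate 1 alone, edgeR called 13 of 86 members (15.1%), all higher in old non-reproducing than in young females. Of all 11520 genes tested, 16.3% were called with both directions together, and 1000 genes were called higher. That fit sets a group that keeps its 2 libraries chosen as high against a group of 3 chosen as low, so the rule fixed the direction and nothing is read from the count.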

How the data were processed

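RNA was measured by sequencing in 12 libraries, grouped by their titles. Extraction used a Qiagen RNeasy kit and library preparation the NEBNext Ultra II Directional kit, per the labels' protocols. A table of raw counts by gene model was deposited, per the file headers, and a second table of RPKM, which the authors scaled by model length and library total. The submitters' processing notes name STAR and SAMtools; the assembly, the counting program and the use of strand are not given in the sources used here. Reads from overlapping, antisense or near-identical models therefore cannot be separated. Dividing counts by library totals and 1 length per gene gave the deposited RPKM to within 1.26e-06 percent; 1 gene had no RPKM value.

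CPM was computed from library totals. Counts were fitted with edgeR 4.0.16 in R 4.3.3: filterByExpr kept 10987 gene models and at least 99.75% of counts, with TMM scaling, 1 mean per group and a robust quasi-likelihood test, two-sided, adjusted over all genes tested. The common BCV was 0.456. Standard errors came from the log2 change and the square root of F. The fits were checked on simulated counts. Alternatives used DESeq2 1.42.0 and limma 3.58.1. The labels do not state that the 4 libraries of a group are separate cultures, so p-values measure the spread between these samples. Library numbers run in blocks by group, so anything that follows the numbers cannot be told apart from group. The labels do not say what the order of the numbers stands for.

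The members and lists were chosen with earlier results of these data known. Genes given by ID are the 2 members with the widest gap among those averaging 10 CPM or more, and members called lower; the 10 members with the most reads, the next members by gap and called members are given by contig and length. The 8 members at least 2-fold higher within every group, and those low in 1 library, were chosen after their values were seen. Gene lists by function were not used because the IDs carry no names.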

Additional observations from a re-analysis of the deposited data

Results flagged for a closer look

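In 24 sets of 4 values, each a measure within 1 study group, 4 had a library farther from the other 3 than Dixon's 95% limit. Chance gives about 1 in 20 such sets, but 3 of the 4 are member values that the rule chose to be high in that library, so the number of sets is not read against chance. In old reproducing replicate 4 the most abundant gene took 4.15% of counts, against 6.93% to 7.38% in the other 3 libraries of the group (gap over range 0.863). The median CPM over the members was 21.3 in old reproducing replicate 2, against 13.6 to 14.1 in the rest of its group (0.931), and 34.5 in young replicate 1, against 11.04 to 11.7 in the rest of its group (0.970). The gene maker-000016F-augustus-gene-15.67 had 110.7 CPM in young replicate 1, against 1.05 to 1.80 CPM in the other young libraries (0.993).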

How the results depend on the processing

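The number of genes that met the rule was 202 with TMM-scaled library sizes, 253 with DESeq2 size factors, 55 with a mean of at least 10 CPM, 2 with a gap of at least 1.5-fold and 0 with at least 2-fold, against 87 as reported. With any 1 library left out, 91 to 269 genes met it, with 263 without old non-reproducing replicate 4, 192 without old reproducing replicate 2, 269 without old reproducing replicate 3 and 207 without young replicate 1. The number grows there by construction, since fewer libraries have to separate. In old non-reproducing against young females, members called numbered 3 without the 4 libraries of the rule and 0 to 13 when 1 library was left out, with 13 without young replicate 1. That fit keeps 2 libraries chosen as high against 3 chosen as low, so its calls follow from the rule. The 3 calls are not independent of the rule either, and their cause was not tested. Every other alternative called 0 members in each comparison of groups. The median log2 ratio of the 4 libraries to the other 8 kept its sign under each alternative run. Those runs used the same members or a part of them, chosen for this difference, so nothing is read from the sign. The libraries holding the highest of the 8 values under TMM scaling, and the median over members whose gap exceeded counting error, were added after seeing the data.

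With the replicate number as a block, 0 members were called in each comparison. Libraries with the same number did not deviate together: correlations of deviations from the group means ran from −0.46 to 0.36 over 12 pairs, and 0 libraries correlated best with their own number, so the numbers were not taken to pair the samples. Depth limits the values of 4 members, which had 3 counts or fewer in some library.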
